A study of Mus musculus with 32 samples.

Results

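The subjects of this section are 10 genes that move amino acids and taurine across the plasma membrane: *Slc3a2*, *Slc7a1*, *Slc7a5*, *Slc7a8*, *Slc1a1*, *Slc1a4*, *Slc1a5*, *Slc38a1*, *Slc38a2*, and *Slc6a6*. They were taken as the partners and neighbors of cystine import, by matching their symbols to the gene identifiers of the count table, which held 34453 genes. All 10 were found and all 10 passed the filter on low counts in every comparison. Each is a protein-coding gene of the mouse genome build GRCm38.

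RNA was sequenced from the retinal pigment epithelium (RPE), the pigmented cell layer behind the photoreceptors, of both eyes of 16 mice carrying *rd1*, a loss-of-function allele of the rod phosphodiesterase *Pde6b* that kills the rods and, later, the cones. In each animal, 1 eye (Nrf2 eye) was given AAV-Best1-Nrf2 mixed with AAV-Best1-GFP, while its fellow (control eye) was given AAV-Best1-GFP only, so that both eyes carried *rd1*, a subretinal injection, and GFP. By the methods, the Nrf2 eye also received a higher total dose of vector and another capsid. Between the eyes, Nrf2, vector dose, and capsid therefore cannot be told apart. Nrf2 is the transcription factor that switches on antioxidant and detoxification genes. The cDNA was human *NFE2L2*, and the Best1 promoter drives it in the RPE. There were 7 mice at P20 and 9 at P40, hence 32 libraries, with totals of 16548332 to 50542797 estimated counts. The methods describe fewer *rd1* pairs at each age than were used here, together with pairs of the wild-type strain CD1 at P40. At P40 the *rd1* and CD1 pairs of the methods together number 9, as many as were used here. The library titles give age, treatment, and mouse number but no strain, and all mice were taken as *rd1* from the other labels of the data. Whether CD1 pairs are among the 9 at P40 was not tested.

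The transgene was read in every library first. Its level was 1082 to 9506 CPM in the 7 Nrf2 eyes at P20 and 3205 to 10438 CPM in the 9 Nrf2 eyes at P40. In control eyes it was 0.924 to 1098 CPM at P20 and 0 to 99.2 CPM at P40. The library labelled control of P20 mouse 3, at 1098 CPM, thus lay above the library labelled Nrf2 of P20 mouse 4, at 1082 CPM, and these libraries were also the closest pair of all 32, with a median squared difference of counts 1.68 times that of counting noise against 5.00 for the next pair. The difference in the transgene at P20 was 7.36 ± 1.74 on the log2 scale (SE) and missed the threshold (edgeR, adjusted *P* = 0.0601). It passed without P20 mouse 4 (adjusted *P* = 0.0277), without P20 mice 3 and 4 (9.60, adjusted *P* = 0.0337), in DESeq2, and without the pairing of eyes (4.91, adjusted *P* = 0.0400). At P40 the difference was 13.28 ± 1.70 (adjusted *P* = 0.000672), and 8.60 without the pairing (adjusted *P* = 0.00172). For the 10 genes, *Slc7a11*, and the balance of heavy and light chains, calls that were lost without P20 mice 3 and 4 are named beside the result. For the further gene lists only the number of calls was taken from that fit. The marker lists were not followed there, so their calls, and those of single genes in the further lists, are not known to hold without these mice. The 8 RPE markers together reached 4675 CPM or more in every library, and no marker of the other cell types was at 0 across a whole group: markers of the inner retina summed to 531 to 2234 CPM and those of macrophages to 67.3 to 452 CPM over the 4 groups. Whether these RNAs came from the named cell types or from the RPE itself was not tested. A change of RNA in the tissue can reflect fewer cells of a type or less RNA per cell, which cannot be told apart here.

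Amino acid carriers work in families. *Slc3a2* encodes CD98hc, a single-span heavy chain that carries no substrate itself but brings light chains of the Slc7 family to the cell surface, among them the large neutral amino acid exchangers LAT1 (*Slc7a5*) and LAT2 (*Slc7a8*) and the cystine-glutamate exchanger xCT (*Slc7a11*), a long-known target of Nrf2. *Slc7a1* encodes CAT1, which takes up arginine and lysine without a heavy chain. The Slc1 family holds the glutamate, aspartate, and cysteine carrier EAAC1 (*Slc1a1*) and the neutral exchangers ASCT1 (*Slc1a4*) and ASCT2 (*Slc1a5*), of which the first exchanges alanine, serine, cysteine, and threonine and the latter also glutamine. *Slc38a1* and *Slc38a2* encode the sodium-coupled carriers SNAT1 and SNAT2. *Slc6a6* encodes TauT, the sodium- and chloride-dependent taurine carrier that the RPE uses to hand taurine from the choroidal blood to the photoreceptors, and whose loss causes retinal degeneration in mice. Cells short of amino acids raise many of these genes through ATF4, which pairs with C/EBP proteins on a composite element (CARE), whereas Nrf2 binds antioxidant response elements (ARE) with small Maf proteins.

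RefSeq promoter windows of GRCm38.p6, running from 250 bases before to 50 after the annotated start, were at hand for 6 of the 10 genes, in 7 windows, and for *Slc7a11*. The CARE core TTGCATCA was searched on both strands and lay in 0.895% of all 32851 windows. The ARE core TGACNNNGC, searched the same way, lay in 12.4% of them. Of the 7 windows, that of *Slc1a4* held a CARE core, whose first base was at position −4 from the start. The window of *Slc7a11* held a CARE core at position −66 on the opposite strand and another at −47. The ARE core occurred in the window of *Slc38a2* at position −27 and, on the opposite strand, in 1 of both windows of *Slc7a1* at position −11. Neither core occurred in the windows of *Slc3a2*, *Slc7a8*, and *Slc1a1*, which says only that these letters are absent there. The windows with a match are printed 5′ to 3′ on the strand of the gene, with the match in capitals, because they include that of the gene that differed most and that of its companion xCT.

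*Slc1a4*, chr11:20332664-20332963, minus strand, CARE core in capitals: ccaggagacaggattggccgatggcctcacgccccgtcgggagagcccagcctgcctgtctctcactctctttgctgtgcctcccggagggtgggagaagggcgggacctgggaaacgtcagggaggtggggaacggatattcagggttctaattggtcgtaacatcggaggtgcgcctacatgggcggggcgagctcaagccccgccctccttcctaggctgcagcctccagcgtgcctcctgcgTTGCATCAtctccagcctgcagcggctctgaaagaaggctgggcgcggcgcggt

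*Slc7a11*, chr3:50443564-50443863, minus strand, CARE cores in capitals: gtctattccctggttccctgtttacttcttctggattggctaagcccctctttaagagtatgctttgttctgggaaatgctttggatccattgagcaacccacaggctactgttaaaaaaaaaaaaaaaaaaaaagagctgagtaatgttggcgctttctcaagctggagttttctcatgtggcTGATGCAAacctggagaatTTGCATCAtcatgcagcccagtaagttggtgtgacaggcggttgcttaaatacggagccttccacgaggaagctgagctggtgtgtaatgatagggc

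*Slc38a2*, chr15:96699679-96699978, minus strand, ARE core in capitals: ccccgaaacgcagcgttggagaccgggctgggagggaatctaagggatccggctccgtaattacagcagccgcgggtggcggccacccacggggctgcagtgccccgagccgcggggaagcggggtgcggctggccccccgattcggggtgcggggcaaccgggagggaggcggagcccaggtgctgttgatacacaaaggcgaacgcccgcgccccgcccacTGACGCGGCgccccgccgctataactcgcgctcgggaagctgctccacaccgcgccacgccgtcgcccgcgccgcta

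*Slc7a1*, chr5:148399855-148400154, minus strand, ARE core (opposite strand) in capitals: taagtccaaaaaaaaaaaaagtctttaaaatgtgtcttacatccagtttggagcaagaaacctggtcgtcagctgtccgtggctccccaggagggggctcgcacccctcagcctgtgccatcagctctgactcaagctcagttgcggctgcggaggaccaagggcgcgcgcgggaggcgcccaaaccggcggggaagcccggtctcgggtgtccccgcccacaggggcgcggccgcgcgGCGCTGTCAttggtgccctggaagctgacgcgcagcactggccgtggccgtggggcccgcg

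The order of the 10 genes by level was read from CPM per kilobase of exon, so that long and short genes could be set side by side. In control eyes at P20, *Slc1a1* (167 ± 54.5 CPM per kilobase, SD, n = 7) and *Slc3a2* (163 ± 21.2) came first and did not differ by more than their spread. They were followed by *Slc6a6* (95.4 ± 32.4), *Slc7a8* (62.3 ± 13.9), *Slc7a5* (42.5 ± 6.72), and *Slc38a2* (29.7 ± 7.14), each of which differed from the next by more than the larger SD. *Slc38a1* (11.7 ± 3.39) and *Slc1a5* (9.09 ± 1.10) did not differ by that measure. *Slc1a4* (3.97 ± 2.94) and *Slc7a1* (1.72 ± 0.396) were lowest and overlapped in spread. The RNA of ASCT1 thus had rank 9 of 10 in control eyes at P20 and rank 10 in control eyes at P40, at 1.76 ± 0.886 CPM per kilobase (n = 9). In Nrf2 eyes its rank was 4 at both ages, at 65.7 ± 43.2 (n = 7) and 57.4 ± 39.4 (n = 9) CPM per kilobase, where it did not differ from *Slc7a8* or *Slc6a6* by more than the larger SD. *Slc3a2* had the highest mean in Nrf2 eyes at both ages, 220 ± 36.0 and 216 ± 70.7 CPM per kilobase, but at P20 it did not differ from *Slc1a1* (185 ± 57.9) by more than the larger SD.

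**Figure D1:**
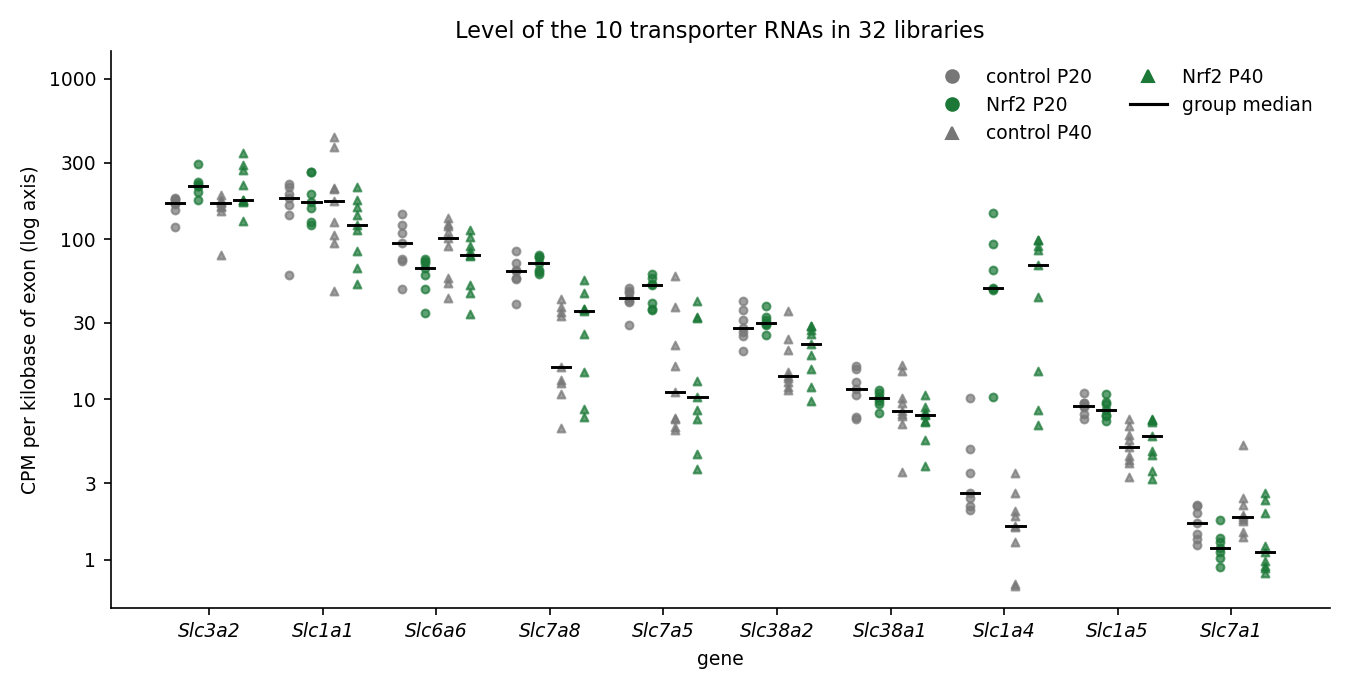
Level of the 10 transporter RNAs in CPM per kilobase of exon (vertical log axis) for each gene (horizontal axis), with 1 point per library, circles for P20, triangles for P40, gray for control eyes, green for Nrf2 eyes, and a black line at each group median. For *Slc1a4* the green medians lie far above the gray ones, while its highest gray and lowest green points at P20 meet at about 10.2 to 10.3 CPM per kilobase.

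The first comparison asked which of these carriers differed in RNA when Nrf2 was overexpressed in the RPE. *Slc1a4* was the 1 gene of 10 that passed the test, at both ages, with the Nrf2 eye above its fellow in all 16 mice. The threshold was passed by 3.41% of the 16303 genes tested at P20 and by 4.57% of the 16686 genes at P40. The median difference of the 10 genes was 0.085 on the log2 scale at P20 and −0.10 at P40, beside −0.041 and −0.026 over all genes tested.

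*Slc1a4* lies on chromosome 11 (20302180 to 20332713, minus strand). At P20 it was at 7.98 to 40.2 CPM in control eyes (median 10.3) and at 40.4 to 573 CPM in Nrf2 eyes (median 195). At P40 it was at 2.69 to 13.7 CPM in control eyes (median 6.37) and at 27.0 to 389 CPM in Nrf2 eyes (median 273). The groups did not overlap at either age, although at P20 the highest control eye, of mouse 3, and the lowest Nrf2 eye, of mouse 4, all but met, and these were the libraries whose transgene levels crossed between mice. The difference was 3.90 ± 0.475 on the log2 scale at P20 (SE, a 14.97-fold higher level, edgeR adjusted *P* = 0.00921) and 4.68 ± 0.593 at P40 (25.6-fold, adjusted *P* = 0.000636). Without P20 mice 3 and 4 the P20 difference was 4.49 (adjusted *P* = 0.00405). Within mice the difference between eyes ran from 2.25 to 6.16 at P20 and from 1.77 to 7.14 at P40. In the Nrf2 eyes at P40 the level fell into a group of 6 between 171 and 389 CPM and mice 3, 6, and 8 at 33.5, 27.0, and 59.2 CPM, whose transgene levels were 9144, 5117, and 3205 CPM. The same mice had the lowest *Slc7a11*.

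*Slc7a11*, the cystine importer beside which the 10 genes were chosen, ran at 12.9 to 57.1 CPM in control eyes at P20 (median 35.8) and 57.2 to 383 CPM in Nrf2 eyes (median 255). At P40 it was at 11.4 to 22.01 CPM in control eyes (median 18.6) and 81.3 to 447 CPM in Nrf2 eyes (median 237). The Nrf2 eye was above its fellow in all 16 mice, without overlap of the groups, by 2.68 ± 0.334 at P20 (adjusted *P* = 0.00921) and 3.55 ± 0.366 at P40 (adjusted *P* = 0.000145). The difference in *Slc1a4* was the larger of both at each age, but this contrast between the genes was not tested.

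**Figure D2:**
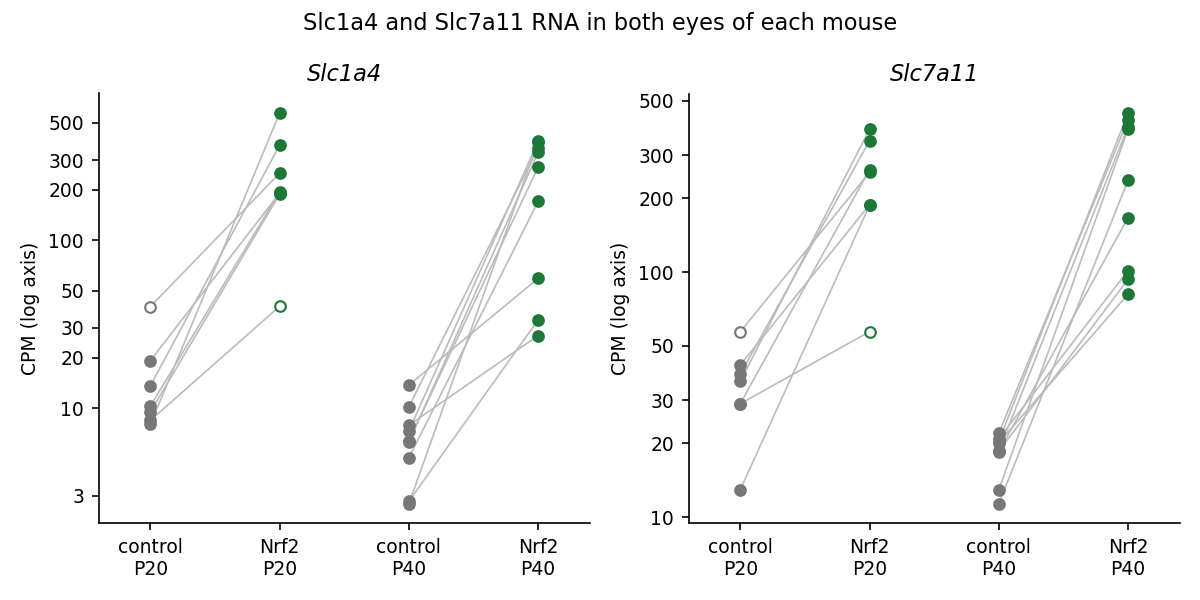
*Slc1a4* (left) and *Slc7a11* (right) in CPM (vertical log axes) by treatment and age (horizontal axes), with 1 point per eye, gray for control eyes, green for Nrf2 eyes, and a line joining both eyes of a mouse. Open points are the control eye of P20 mouse 3 and the Nrf2 eye of P20 mouse 4, whose transgene levels crossed. All 16 lines rise from the control eye to the Nrf2 eye for both genes.

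Cell type markers moved with treatment as well. In Nrf2 eyes at P40, 206 of the 16686 genes tested passed as lower and 556 as higher. Of the cone markers 7 of 7 were lower, with summed levels of 27.7 to 236 CPM against 262 to 2041 CPM in control eyes. Of the RPE markers 5 of 8 were lower (*Rgr*, *Rdh5*, *Lrat*, *Rpe65*, and *Rlbp1*), with sums of 11471 to 69873 CPM against 10871 to 67348 CPM. Of the macrophage markers 3 of 7 (*C1qa*, *C1qb*, and *Cx3cr1*) were higher, while 2 of 7 had a lower level that did not pass. The macrophage sums overlapped, at 91.1 to 324 CPM against 67.3 to 451 CPM. Of the rod markers 1 of 6 tested was lower (*Sag*), with sums of 6.65 to 43.0 CPM against 51.8 to 431 CPM, and 1 of 6 fibroblast markers was higher (*Col3a1*). At P20, 2 of 7 cone markers and 1 of 8 RPE markers were lower and none of the macrophage markers passed. Of the 16303 genes tested there, 79 passed as lower and 477 as higher. The part of these markers in the differences of the transporters was not tested.

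*Slc3a2* (chromosome 19, 8706882 to 8723369, minus strand), the heavy chain, was at 362 to 548 CPM in control eyes at P20 (median 510) and 534 to 885 CPM in Nrf2 eyes (median 649). Of the 7 Nrf2 eyes 6 lay above every control eye, and the Nrf2 eye was the higher in 7 of 7 mice. The difference of 0.40 ± 0.129 on the log2 scale (1.32-fold) missed the threshold in edgeR (adjusted *P* = 0.1497), and passed it in DESeq2 (adjusted *P* = 0.0162). At P20 DESeq2 called 2 of the 10 genes and 6.53% of the 29128 genes to which it gave a *P* value. That set, as for every DESeq2 share given here, was not filtered on low counts. These shares are therefore not directly comparable with those of edgeR. At P40 it was at 242 to 566 CPM in control eyes and 393 to 1045 CPM in Nrf2 eyes, with the Nrf2 eye the higher in 7 of 9 mice, and the difference was 0.38 ± 0.192 (adjusted *P* = 0.466). *Slc3a2* therefore showed about the same difference at both ages, but neither passed the main test.

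*Slc7a1*, the arginine and lysine carrier, was lower in the Nrf2 eye of 7 of 7 mice at P20 and 7 of 9 at P40. Its level was 8.87 to 15.8 CPM in control eyes at P20 and 6.44 to 12.6 CPM in Nrf2 eyes, a difference of −0.50 ± 0.179 (edgeR adjusted *P* = 0.186). At P40 it was 9.94 to 37.1 CPM in control eyes and 5.90 to 18.8 CPM in Nrf2 eyes, a difference of −0.69 ± 0.230 (adjusted *P* = 0.151), with 6 of 9 Nrf2 eyes below every control eye. At P40 the gene passed in DESeq2 (adjusted *P* = 0.0408), which called 2 of the 10 genes and 5.28% of 27653 genes there. It also passed in edgeR when mouse 5 was left out (−0.85, adjusted *P* = 0.0449). Mouse 5 was 1 of the 2 mice in which the Nrf2 eye was the higher.

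*Slc6a6* (chromosome 6, 91684053 to 91759066, plus strand), the taurine carrier, was at 302 to 887 CPM in control eyes at P20 (median 588) and 216 to 463 CPM in Nrf2 eyes (median 410). The ranges overlapped, the Nrf2 eye was the lower in 6 of 7 mice, and the difference of −0.63 ± 0.238 missed the threshold (adjusted *P* = 0.212). Within mice it ran from −1.81 to 0.0024, so that in some mice both eyes were nearly equal. At P40 the level was 265 to 836 CPM in control eyes and 211 to 710 CPM in Nrf2 eyes, and the difference was −0.32 ± 0.197 (adjusted *P* = 0.605), lower in 6 of 9 mice.

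The other 6 genes gave smaller or less even differences, and none passed. *Slc1a1*, the glutamate and cysteine carrier, differed by 0.15 ± 0.302 at P20 and by −0.53 ± 0.206 at P40, where the Nrf2 eye was the lower in 7 of 9 mice (adjusted *P* = 0.260). *Slc38a1* differed by −0.20 ± 0.154 and −0.31 ± 0.171, and *Slc38a2* by 0.046 ± 0.145 and 0.23 ± 0.264. For *Slc1a5*, the glutamine exchanger and closest relative of *Slc1a4* in the list, the differences were −0.084 ± 0.103 at P20 and 0.079 ± 0.217 at P40. The light chains *Slc7a5* (0.12 ± 0.170 and −0.29 ± 0.350) and *Slc7a8* (0.17 ± 0.154 and 0.34 ± 0.313) were equally short of the threshold. Counts assigned to *Slc1a1* and *Slc7a5* may include reads of antisense genes that overlap them, since the strand setting is not given in the sources used here. The overlapping genes averaged at most 98.4 counts per library, against 2974 counts or more of *Slc1a1* and 375 or more of *Slc7a5*.

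**Figure D3:**
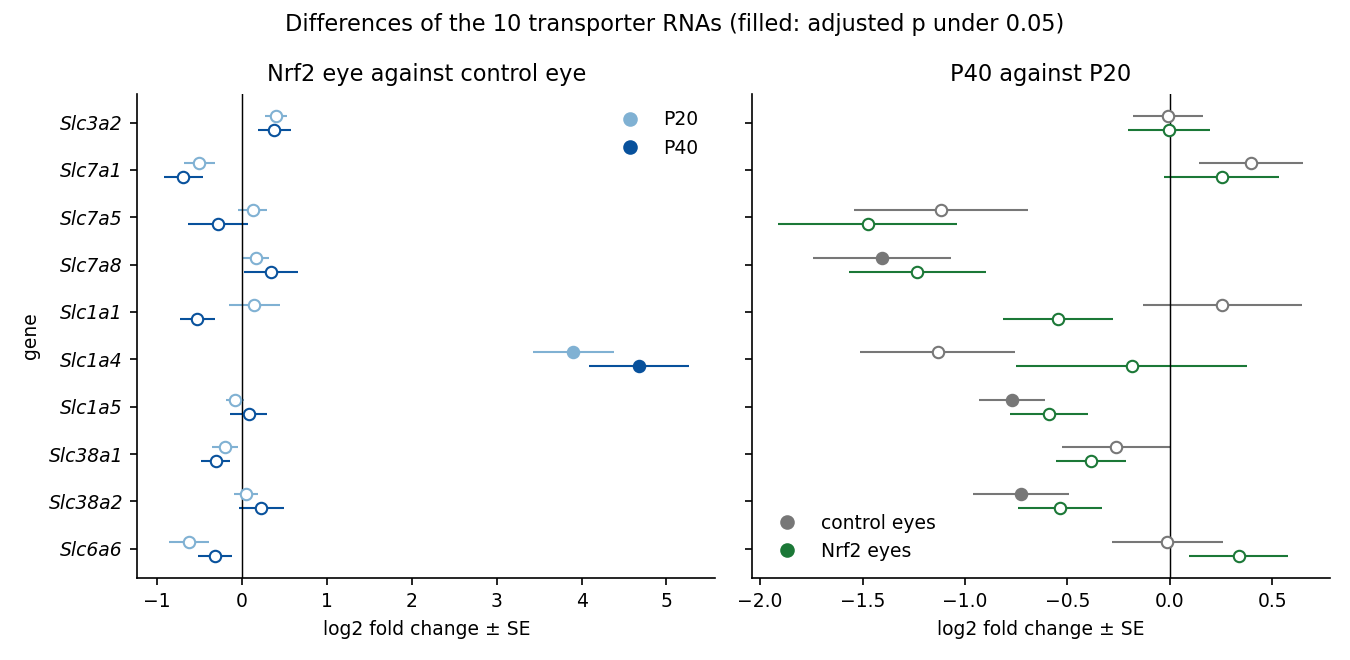
Differences of the 10 transporter RNAs on the log2 scale (horizontal axes, ± SE) for each gene (vertical axis), between Nrf2 and control eyes at P20 and P40 (left) and between P40 and P20 in control and Nrf2 eyes (right). Filled points passed an adjusted *P* of 0.05 in edgeR: *Slc1a4* on the left, and *Slc7a8*, *Slc1a5*, and *Slc38a2* in control eyes on the right.

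Whether the effect of Nrf2 itself changed with age was tested in 1 model of all 32 libraries. None of the 10 genes passed in edgeR, none had an unadjusted *P* under 0.05, and DESeq2 called none. Of all genes 0.00557% passed in edgeR, 2.39% had an unadjusted *P* under 0.05, and DESeq2 called 0.0331% of 30185 genes. The difference between the ages was 0.78 ± 0.772 on the log2 scale for *Slc1a4* and 0.87 ± 0.511 for *Slc7a11* (adjusted *P* = 1.00 for both). Without P20 mice 3 and 4 these differences were 0.17 and 0.42.

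The heavy chain and its light chains were then set against each other per kilobase, over *Slc7a5*, *Slc7a6*, *Slc7a7*, *Slc7a8*, *Slc7a10*, and *Slc7a11*. In control eyes at P20, the D-serine and small neutral amino acid exchanger *Slc7a10* held 40.3 ± 13.5% of light chain RNA (SD, n = 7), *Slc7a8* 32.7 ± 12.6%, and *Slc7a5* 21.5 ± 2.63%. *Slc7a11* held 1.84 ± 0.857%. In Nrf2 eyes at P20 *Slc7a11* held 11.02 ± 5.24%, a difference of 9.18 percentage points, higher in 7 of 7 mice (exact paired permutation test, 2-sided, *P* = 0.0156, adjusted over 8 tests 0.0313). At P40 the share was 1.56 ± 1.25% in control eyes and 18.2 ± 8.69% in Nrf2 eyes (n = 9), a difference of 16.7 points, higher in 9 of 9 mice (exact *P* = 0.00391, adjusted 0.0280). Both *P* values are the smallest that the tests can give. Without P20 mice 3 and 4 the P20 difference was 11.2 points, with 5 pairs and an adjusted *P* of 0.188. The share of *Slc7a10* in Nrf2 eyes at P40 was 46.7 ± 13.7% against 68.6 ± 9.61% in control eyes.

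The ratio of *Slc3a2* to the sum of the light chains was 0.835 ± 0.159 in control and 1.01 ± 0.193 in Nrf2 eyes at P20 (exact *P* = 0.109, adjusted 0.125). At P40 it was 1.15 ± 0.356 and 1.68 ± 0.712, higher by 0.51 on the log2 scale and in 8 of 9 mice (exact *P* = 0.00781, adjusted 0.0280). This call rested on the pairing, with an adjusted *P* of 0.0839 without it, and on the division by length: in plain CPM the log2 difference was −0.065 (adjusted *P* = 0.948). The ratio was also higher at P40 than at P20 in Nrf2 eyes, by 0.65 (exact *P* = 0.0105, adjusted 0.0280), but not past the threshold without P20 mice 3 and 4 (0.59, adjusted *P* = 0.188). In control eyes the difference with age of 0.41 missed the threshold (adjusted *P* = 0.0979), and passed it when control P40 mouse 1 was left out (0.53, adjusted *P* = 0.0210).

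**Figure D4:**
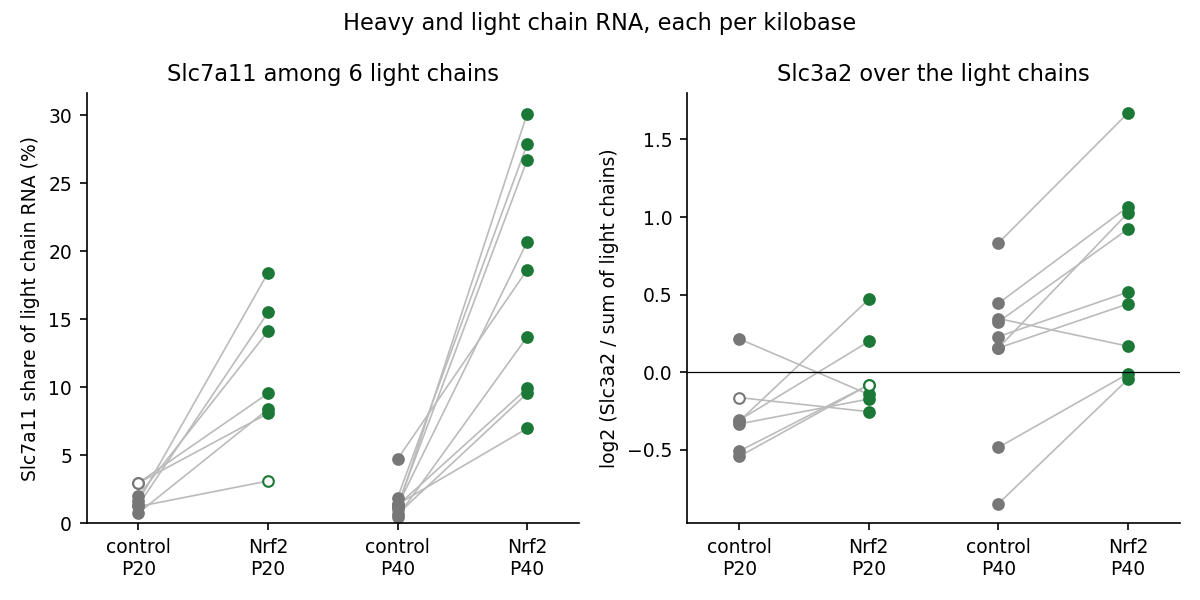
Share of *Slc7a11* in the RNA of 6 light chains in percent (left, vertical axis) and log2 ratio of *Slc3a2* to their sum (right, vertical axis), each per kilobase, by treatment and age (horizontal axes). Each point is an eye, gray for control and green for Nrf2, lines join both eyes of a mouse, and open points are the P20 libraries whose transgene levels crossed between mice. All 16 lines rise on the left, and on the right 8 of 9 rise at P40.

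Other amino acid carriers, from a list of 53 further genes, gave a mixed picture at P40. Of the 42 tested, *Slc7a11* rose and *Slc6a13*, *Slc6a20a*, and *Slc7a10* fell in Nrf2 eyes. *Slc6a13*, a carrier of GABA and taurine, was at 101 to 622 CPM in control eyes and 56.4 to 222 CPM in Nrf2 eyes, a difference of −1.79 ± 0.229 (adjusted *P* = 0.000672). *Slc6a20a*, the proline carrier, fell by 1.17 ± 0.206 on the log2 scale and *Slc7a10* by 0.72 ± 0.165. At P20 1 of 41 tested passed, *Slc7a11*. The count of other carriers was 3 without mouse 4 at P20 and 9 without mouse 6 at P40. DESeq2, without the filter on low counts, called 7 of 53 at P20 and 10 of 52 at P40. The shares over all genes were 3.41% and 4.57% in the main test, and 6.53% and 5.28% over the larger gene sets of DESeq2. Among 14 genes of taurine synthesis and transport, 12 were tested at P20 and none passed, although 4 had an unadjusted *P* under 0.05 and DESeq2 called 3 of 14. At P40 2 of 13 passed, *Slc6a13* and the monocarboxylate carrier *Slc16a6*, both lower, and without any 1 mouse other than mouse 8 only 1 did. *Slc6a6* was thus not among the taurine genes that passed, whereas *Slc6a13* was.

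Of all genes, 3.41% passed at P20 and 4.57% at P40. Of 18 genes of the amino acid response, 1 passed in Nrf2 eyes at each age, *Cebpb*, which encodes a C/EBP partner of ATF4. It was at 39.9 to 78.6 CPM in control and 63.1 to 158 CPM in Nrf2 eyes at P20, and 55.4 to 109 CPM and 88.6 to 241 CPM at P40, higher by 1.01 ± 0.202 (adjusted *P* = 0.0343) and 0.88 ± 0.144 (adjusted *P* = 0.00355). The median of the 18 genes was −0.047 at P20 and −0.35 at P40 on the log2 scale. Of their differences 7 were positive and 11 negative at P20 (all genes tested: 7379 and 8924), and 4 and 14 at P40 (7755 and 8931). *Atf4* did not pass at either age. Its mean was 73.3 CPM in control and 61.5 CPM in Nrf2 eyes at P20, and 76.5 and 65.4 CPM at P40. A part of ATF4 in the differences between the eyes was not tested. The count for this list at P20 was 0 without mouse 1, 3, 5, 6, or 7, 4 without mouse 4, and 5 in DESeq2. At P40 it was 4 without mouse 6, 3 without mouse 8, and 4 in DESeq2.

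The second comparison asked how the carriers differed between P20 and P40. In control eyes 3 of the 10 genes were lower at P40 and none was higher: *Slc7a8*, *Slc1a5*, and *Slc38a2*. Of all 16832 genes tested 14.8% passed, 6.42% as lower. The median difference of the 10 genes was −0.50 on the log2 scale, beside −4.6e-05 over all genes. The ages were compared between mice, and whether their libraries were prepared and sequenced together is not given in the sources used here, so that age and preparation cannot be told apart. If CD1 mice are among those at P40, strain cannot be told apart from age either.

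*Slc7a8* (chromosome 14, 54722209 to 54781946, minus strand), the light chain LAT2, had a median of 259 CPM in control eyes at P20 (range 160 to 345) and of 65.1 CPM at P40 (range 27.1 to 174). Of the 9 eyes at P40 8 lay below every eye at P20, and the 9 split into 5 at or below 65.1 CPM and 4 (mice 1, 4, 6, and 9) at 135 CPM or more. The difference was −1.41 ± 0.336 (2.65-fold lower, edgeR adjusted *P* = 0.0221). *Slc1a5* (chromosome 7, 16781340 to 16798274, plus strand) had a median of 25.2 CPM at P20 (range 20.88 to 30.3) and of 14.03 CPM at P40 (range 9.10 to 20.91), again with 8 of 9 eyes below every eye at P20, a difference of −0.77 ± 0.161 (1.71-fold lower, adjusted *P* = 0.0155). *Slc38a2* (chromosome 15, 96687392 to 96699730, minus strand) had a median of 129 CPM at P20 (range 93.4 to 193) and of 65.4 CPM at P40 (range 53.0 to 166), a difference of −0.73 ± 0.232 (1.65-fold lower, adjusted *P* = 0.0453). The ranges of these genes touched or overlapped between the ages, most of all for *Slc38a2*, where P40 mouse 4 stood at 166 CPM.

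These calls depended on the libraries in the fit. Without P20 mice 3 and 4 none of the 10 genes passed, and of all genes 0.916% did. The differences then were −1.40 for *Slc7a8* (adjusted *P* = 0.0736), −0.77 for *Slc1a5* (adjusted *P* = 0.0592), and −0.81 for *Slc38a2* (adjusted *P* = 0.0951), close to those with all mice. *Slc7a8* was lost when control P20 mouse 5 was left out (adjusted *P* = 0.0531), which left 1 of the 10 genes, *Slc1a5*. *Slc38a2* was lost in 12 of the 16 fits that left out 1 eye, those without any 1 of the 7 P20 eyes or without P40 mouse 2, 3, 5, 7, or 9, with adjusted *P* values up to 0.0943. *Slc1a5* passed in all 16.

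*Slc7a5*, *Slc1a4*, and *Slc7a11* were near the threshold. The light chain LAT1 (*Slc7a5*) was at 103 to 175 CPM in control eyes at P20 and 22.7 to 208 CPM at P40, where 7 of 9 eyes lay below every eye at P20 and mice 1 and 9 stood at 208 and 133 CPM. The difference of −1.12 ± 0.424 missed the threshold (adjusted *P* = 0.0758) and passed it without control P40 mouse 1 (adjusted *P* = 0.00839) or mouse 9 (adjusted *P* = 0.0464). *Slc1a4* was lower by −1.13 ± 0.377 (adjusted *P* = 0.0511). It passed without control P40 mouse 4 (adjusted *P* = 0.0434) or mouse 8 (adjusted *P* = 0.0308) and in DESeq2 (adjusted *P* = 0.0262), which called 4 of the 10 genes and 15.4% of 27085 genes. Without P20 mice 3 and 4 the difference in *Slc1a4* was −0.79 (adjusted *P* = 0.162). *Slc7a11* was lower by −0.90 ± 0.227 (adjusted *P* = 0.0263), a call lost without control P20 mouse 1, 3, or 5 (adjusted *P* = 0.0574, 0.0566, and 0.0587) and without P20 mice 3 and 4 (−0.78, adjusted *P* = 0.0896).

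The heavy chain and the taurine carrier did not share in this. *Slc3a2* differed with age by −0.0098 ± 0.169 in control eyes and *Slc6a6* by −0.013 ± 0.270, and the sign of both changed with the scaling, to 0.014 and 0.0074 with RLE normalization. *Slc38a1* (−0.26 ± 0.264), *Slc1a1* (0.26 ± 0.387), and *Slc7a1* (0.40 ± 0.255) did not pass either. *Slc1a1* spread from 180 to 1639 CPM over the control eyes at P40, with mice 1 and 9 the highest, as for *Slc7a5*.

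**Figure D5:**
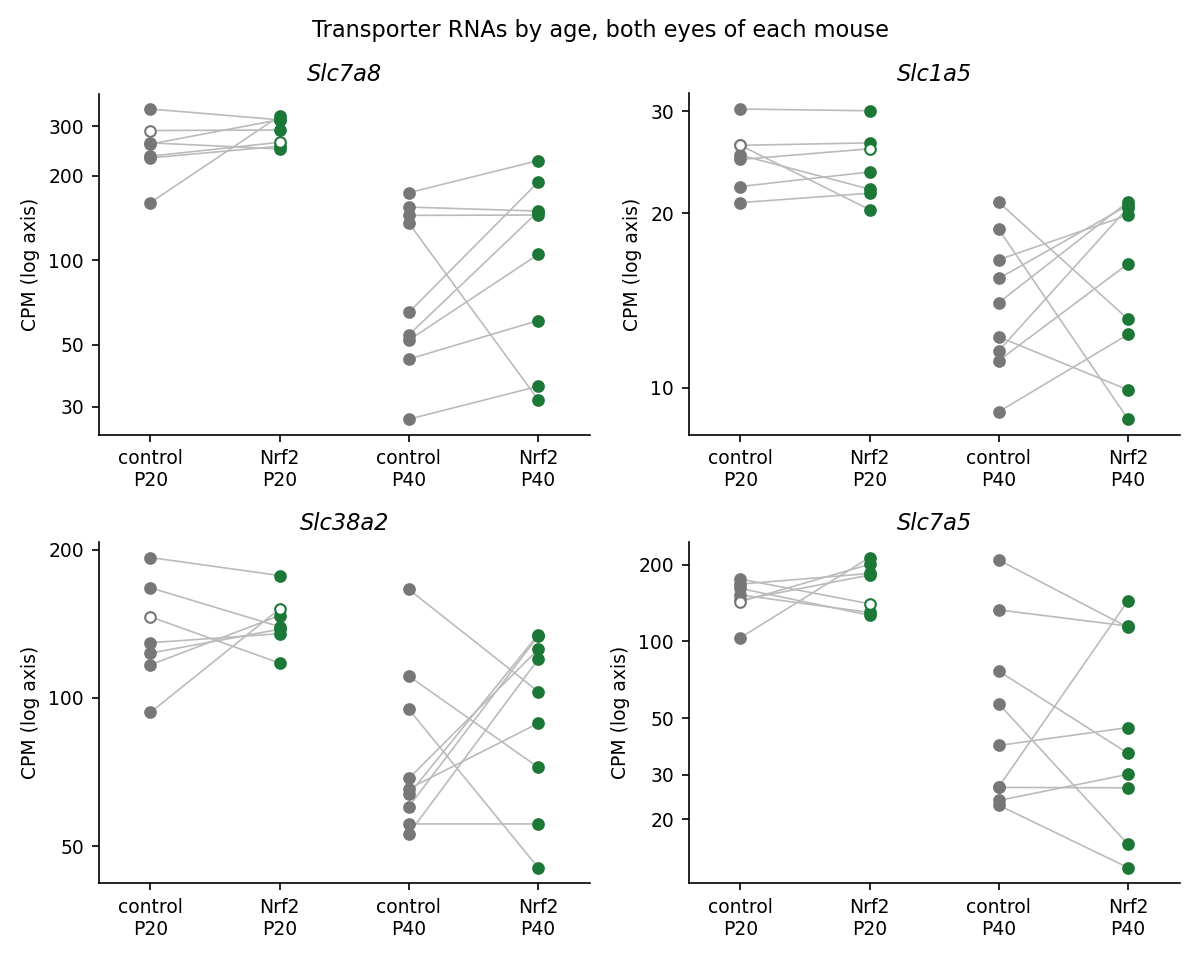
*Slc7a8*, *Slc1a5*, *Slc38a2*, and *Slc7a5* in CPM (vertical log axes) by treatment and age (horizontal axes), with 1 point per eye, gray for control and green for Nrf2, lines joining both eyes of a mouse, and open points for the P20 libraries whose transgene levels crossed between mice. Most P40 points lie below the P20 points, with a wider spread at P40.

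In Nrf2 eyes none of the 10 genes passed with age, beside 0.502% of the 16745 genes tested. Of the 10, 5 had an unadjusted *P* under 0.05, all lower at P40, beside 25.8% of all genes. DESeq2 called 3 (*Slc7a5*, *Slc7a8*, and *Slc1a5*), beside 5.95% of 26450 genes. *Slc7a8* was at 249 to 326 CPM at P20 and 31.8 to 226 CPM at P40 in Nrf2 eyes, without overlap, and the difference of −1.23 ± 0.334 had an adjusted *P* of 0.104. The differences of *Slc7a5* (−1.47 ± 0.438), *Slc1a5* (−0.59 ± 0.191), and *Slc38a2* (−0.54 ± 0.206) were of a similar size to those in control eyes, and the test of the difference between treatments, given above, called none of them. The level of *Slc1a4* in Nrf2 eyes differed by −0.19 ± 0.565 with age, that of *Slc38a1* by −0.39 ± 0.171, and that of *Slc1a1* by −0.55 ± 0.270. *Slc6a6* (0.33 ± 0.242) and *Slc7a1* (0.25 ± 0.280) had the opposite sign. *Slc3a2* differed by −0.0053 ± 0.1997, and by 0.000305 with RLE normalization.

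Some markers differed with age in control eyes too, where 6.42% of all genes passed as lower and 8.34% as higher. At P40 4 of 6 fibroblast markers, 3 of 6 melanocyte markers, 2 of 8 inner retina markers, 2 of 7 rod markers, and 1 of 5 blood markers tested were lower. Of the RPE markers 1 of 8 (*Ttr*) was higher. The markers were not followed without P20 mice 3 and 4, where 0.916% of all genes passed. The summed melanocyte markers were at 4038 to 13327 CPM at P20 and 2534 to 7860 CPM at P40, and the fibroblast markers at 109 to 658 CPM and 82.1 to 455 CPM. Whether the marker RNAs came from the named cell types or from the RPE was not tested, nor was their part in the differences of the transporters.

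Beside 6.42% of all genes, 8 of 43 other carriers tested were lower with age in control eyes and none was higher. The largest differences were those of the GABA carrier *Slc6a11* (−3.02 ± 0.937), the neutral amino acid carrier *Slc6a15* (−1.57 ± 0.289), *Slc38a4* (−1.56 ± 0.391), and the arginine carrier *Slc7a2* (−1.27 ± 0.284). *Slc6a15* stood out by its level, at 91 to 164 CPM at P20 and 10.98 to 70.0 CPM at P40, without overlap. Of the 13 taurine genes tested 3 passed, beside 14.8% of all genes. *Fmo1*, which oxidizes hypotaurine to taurine, rose (0.83 ± 0.190), and *Ado* (−0.62 ± 0.164), which makes hypotaurine from cysteamine, and the volume-regulated channel subunit *Lrrc8b* (−0.98 ± 0.218) fell. In the amino acid response list 4 of 18 rose with age, beside 8.34% of all genes, *Trib3* (1.91 ± 0.311), *Ddit3* (1.31 ± 0.290), *Psph* (0.73 ± 0.170), and *Cebpb* (0.64 ± 0.178), and none fell. *Trib3*, *Ddit3*, and *Psph* are known targets of ATF4. Over the 18 genes 12 differences were positive and 6 negative, with a median of 0.28. *Atf4* itself did not pass, with a mean of 73.3 CPM at P20 and 76.5 CPM at P40 in control eyes. A part of ATF4 in these differences was not tested. In Nrf2 eyes 1 of the 18 passed with age, beside 0.502% of all genes. It was the serine synthesis gene *Psat1*, lower by −0.62 ± 0.104 (adjusted *P* = 0.0113). That call was lost without P20 mice 3 and 4 and without a filter on low counts, where 0 of the 18 passed. Without P20 mice 3 and 4 these counts in control eyes were 1 among the other carriers, 0 among the taurine genes, and 1 in the amino acid response list, beside 0.916% of all genes. The other carriers gave 3 to 5 without control P20 mouse 1, 2, 3, 5, or 7 or control P40 mouse 2. The amino acid response list gave 2 without control P20 mouse 5 and 8 without control P40 mouse 1.

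The genes whose log2 CPM followed these carriers most closely over the 32 libraries were sought among 11794 genes, as a description in which libraries of a mouse, depth, and treatment are shared. For *Slc3a2* they were *Efemp2* (Pearson *r* = 0.919), *Paics* (0.918), and *Pip4p2* (0.899). For *Slc6a6* the closest were weaker, *Shisa2* (0.772), *Mdm1* (0.742), and *Sgk1* (0.739). For *Slc1a4*, added after its values were seen, they were *Slc11a1* (0.986), *Gclc* (0.984), which encodes the catalytic subunit of the first enzyme of glutathione synthesis, and *Srxn1* (0.980), which encodes sulfiredoxin.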

How the data were processed

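RPE RNA from both eyes of 16 mice, taken as *rd1*, was analyzed. The deposited values were estimated counts per gene, which the authors had rounded and left without normalization. The methods name bcbio-nextgen, STAR alignment to mm10 with Ensembl release 91, featureCounts, and Salmon brought in by tximport. Submitters' processing notes give Salmon 0.9.1. That the estimated counts came from Salmon was inferred from the gene set. RNA was amplified before sequencing, without molecular identifiers, and amplification can widen the spread of low genes. Totals of 16548332 to 50542797 counts per library set the precision. All columns were mapped to samples.

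Genes were kept by filterByExpr, normalized by TMM, and tested with edgeR 4.0.16 quasi-likelihood tests in R 4.3.3, with mouse as a block for Nrf2 eyes against control eyes and for its difference between ages, and without a block between ages, where mice differ. *P* values were adjusted by Benjamini-Hochberg over all genes tested, with a threshold of 0.05. SEs were derived from the log2 fold change and *F*. CPM used TMM over 32 libraries, log2 CPM a prior count of 2, and levels per kilobase the merged exons of GENCODE release M 21. Balance quantities were tested with exact permutation tests (SciPy 1.17.1). The fits were tested on simulated data. For Nrf2 eyes against control eyes, *P* values rest on how the difference between the eyes varies over mice. Between ages they rest on the spread between mice. DESeq2 1.42.0, RLE normalization, no filter, no block, and fits without single mice or eyes, or without P20 mice 3 and 4, were alternatives.

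The eyes of a mouse are paired by the labels and the methods. As a check, each eye's deviation from its group mean was correlated with that of the fellow eye. The mean *r* was −0.0256 at P20, with 2 of 7 mice over 0.1, and 0.139 at P40, with 5 of 9. Eyes of unrelated pairs gave 0.0044 and −0.0018. The 10 members and all lists were chosen with earlier results of these data known. Named were the 10 members, *Slc7a11*, the transgene, at most 4 genes in each direction of each further list that passed, and the 3 genes most correlated with *Slc3a2* and *Slc6a6*. Further names, the *Slc1a4* correlates included, were chosen after their values were seen. Of 34453 rows, 34401 had a symbol and 4268 had no count.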

Additional observations from a re-analysis of the deposited data

Results flagged for a closer look

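In 52 groups of values (10 carriers and *Slc7a11* in CPM, and both balance quantities, each in 4 groups) 4 held a sample far from the others by Dixon's test, where chance gives about 1 in 20. *Slc1a4* in the control eye of P20 mouse 3 was at 40.2 CPM, with the nearest of the other control eyes at 19.2 CPM. Its transgene level, 1098 CPM, was the highest of the control eyes. The other 3 values came from the control eye of P40 mouse 8, the library with the lowest total of its group. *Slc3a2* was at 242 CPM there, with the nearest eye at 452 CPM, *Slc7a1* at 37.1 CPM, with the nearest at 17.4 CPM, and the share of *Slc7a11* among the light chains at 4.72%, with the nearest at 1.87%.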

How the results depend on the processing

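*Slc1a4* and *Slc7a11* passed in Nrf2 eyes at both ages under every alternative run, *Slc1a4* with 3.56 to 4.49 at P20 and 4.37 to 5.01 at P40 on the log2 scale. Fits without the replicate block changed no call of the 10 genes, but gave 3 other carriers, 1 taurine gene, and 2 response genes at P20, and 1 taurine gene and 2 response genes at P40. No block was possible between ages, which share mouse numbers but no mice. DESeq2 called 2 of the 10 genes at P20, 2 at P40, and 3 with age in Nrf2 eyes. Leaving out single mice gave 1 to 2 calls at P40, and leaving out single eyes 1 to 4 with age in control eyes, where 0 passed without P20 mice 3 and 4. The cause of these changes was not tested, apart from the smaller number of samples. The share of *Slc7a11* differed by 7.91 to 10.4 points at P20 without single mice, each with an adjusted *P* of 0.0625 and the smallest *P* that 6 pairs can give, and by 11.2 points without P20 mice 3 and 4, where 5 pairs cannot reach the threshold. Without division by length it differed with age in control eyes by 0.0501 points, and the log2 *Slc3a2* ratio by −0.0072 at P20, −0.065 at P40, and 0.66 with age in control eyes (now past the threshold). That last ratio ran from 0.32 to 0.53 without single eyes. The ratio with age in Nrf2 eyes was 0.59 without P20 mice 3 and 4, no longer past the threshold, and that at P40 was 0.51 without the replicate block (adjusted *P* = 0.0839). For the 10 genes, *Slc7a11*, and the transgene, which were the single genes refitted, the differences whose sign changed passed under no alternative. Without single mice these ran from −0.012 to 0.21 (*Slc7a5*), −0.086 to 0.31 (*Slc1a1*), and −0.082 to 0.13 (*Slc38a2*, −0.023 without P20 mice 3 and 4) at P20 and from −0.0088 to 0.22 (*Slc1a5*) at P40. With age in control eyes *Slc3a2* ran from −0.072 to 0.077 without single eyes (0.0016 in DESeq2, 0.014 with RLE, 0.010 without P20 mice 3 and 4) and *Slc6a6* from −0.13 to 0.12 (0.0074 with RLE). With age in Nrf2 eyes *Slc3a2* ran from −0.11 to 0.078 (0.000305 with RLE), *Slc1a4* from −0.40 to 0.14, *Slc7a11* from −0.081 to 0.28 (−0.066 without P20 mice 3 and 4), and the transgene from −0.023 to 0.34. The difference of the Nrf2 effect between ages ran from −0.14 to 0.058 for *Slc3a2* (0.015 without the replicate block, 0.0033 without a filter) and from −0.18 to 0.0014 for *Slc38a1*.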
